A study of Bos taurus with 20 samples.

Results

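FKBP5, ZBTB16, KLF15, PER1, DDIT4, CRISPLD2, ERRFI1, PIK3R1 and SGK1 are 9 genes known from other species and cell types as direct or early targets of glucocorticoid hormones. They were chosen by name, through the gene symbol of the array platform's annotation, and each was represented by 1 array row among the 11329 genes with a symbol. The 9 genes and the gene lists used below were chosen with earlier results of these data known, so their counts are descriptions. The values come from longissimus dorsi, a long back muscle, in 2 crosses of cattle that share the Hereford breed, one bred with Piedmontese and the other with Wagyu. Muscle was sampled at 60, 135, 195 and 280 days of gestation and at 3, 7, 12, 20, 25 and 30 months after birth. No treatment was labelled at any age, and neither the sex of the animals, the hour of sampling nor a hormone level is given in the labels. Each cross and age had 1 deposited value per array row, which stood for 3 animals before birth and for 4 after it.

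Glucocorticoids, of which cortisol is the main one in cattle, enter cells and bind the glucocorticoid receptor, which is held ready by HSP90 and its helper proteins. The bound receptor moves to the nucleus, attaches to DNA near its targets and raises their transcription within hours. In ruminants the fetal adrenal gland releases more cortisol towards the end of gestation, and this is known to mature several organs and to start labour. In skeletal muscle the hormone is known to slow protein synthesis, to promote protein and amino acid breakdown and to shift fuel use from glucose to fat. The 9 genes cover several of these arms: a brake on the receptor, 3 regulators of transcription, a brake on growth signalling, a secreted protein, and 3 regulators of growth factor and ion transport signalling.

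The values are log2 units as deposited and range from −0.64 to 21.75, with column medians between 5.88 and 7.36. Because the levels of different rows depend on their probes, levels are compared only within a gene. Since each cross and age had 1 value, each age was represented by its 2 cross columns, and nothing in the files gives the spread among animals. Errors given with ± are standard errors from a limma fit with age and cross over all 21475 rows, and every p-value is adjusted by Benjamini-Hochberg over those rows, with 0.05 as the threshold. Both columns of an age came from the same arrays, 1 sample of each cross on each, so they are not independent. Array error common to an age is therefore missing from the errors and p-values of differences between ages, which can be too small. Taken over rows, the SD of the gap between the crosses was 0.40 to 0.62 before birth and 0.28 to 0.37 after it, and the fit uses 1 shared error for both. Fetal samples lay on 3 slides, those of 3 to 20 months on 4 others and those of 25 and 30 months on 2 more. Steps within gestation, from 3 to 20 months and from 25 to 30 months therefore fall within a set of slides, while birth and slides cannot be told apart. Each age also held its own array position or positions within its set of slides, before and after birth, so position and age cannot be told apart in any of these steps. The labelled tissue was borne out by its markers: the mean level of 8 measured muscle fibre markers was 14.06 and 15.49 at 60 days and between 18.45 and 20.31 in every column from 195 days onwards.

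The main change of the 9 genes lay between 195 and 280 days of gestation, the last fetal interval sampled. Of the 9 genes 7 rose and 1 fell in this interval, while over all rows 14.2% rose and 33.6% fell. The median difference of the 9 genes was 3.19 log2 units, against −0.16 for all rows. FKBP5, ZBTB16, DDIT4, KLF15, CRISPLD2, PER1 and PIK3R1 rose, SGK1 fell, and ERRFI1 did not pass. In whole muscle a rise can come from more cells of a type or from more RNA per cell, and these cannot be told apart here. The rises of FKBP5, ZBTB16, KLF15, PER1, DDIT4 and CRISPLD2 passed in every alternative run, among them quantile normalisation, columns centred on their medians and the loss of either 280-day column. Scaling moved the background rather than these calls: of the rows that passed, 29.7% were higher as deposited, 54.5% after quantile normalisation and 71.3% with centred columns, and the median of all rows went from −0.16 to 0.13 and 0.58.

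**Figure D1:**
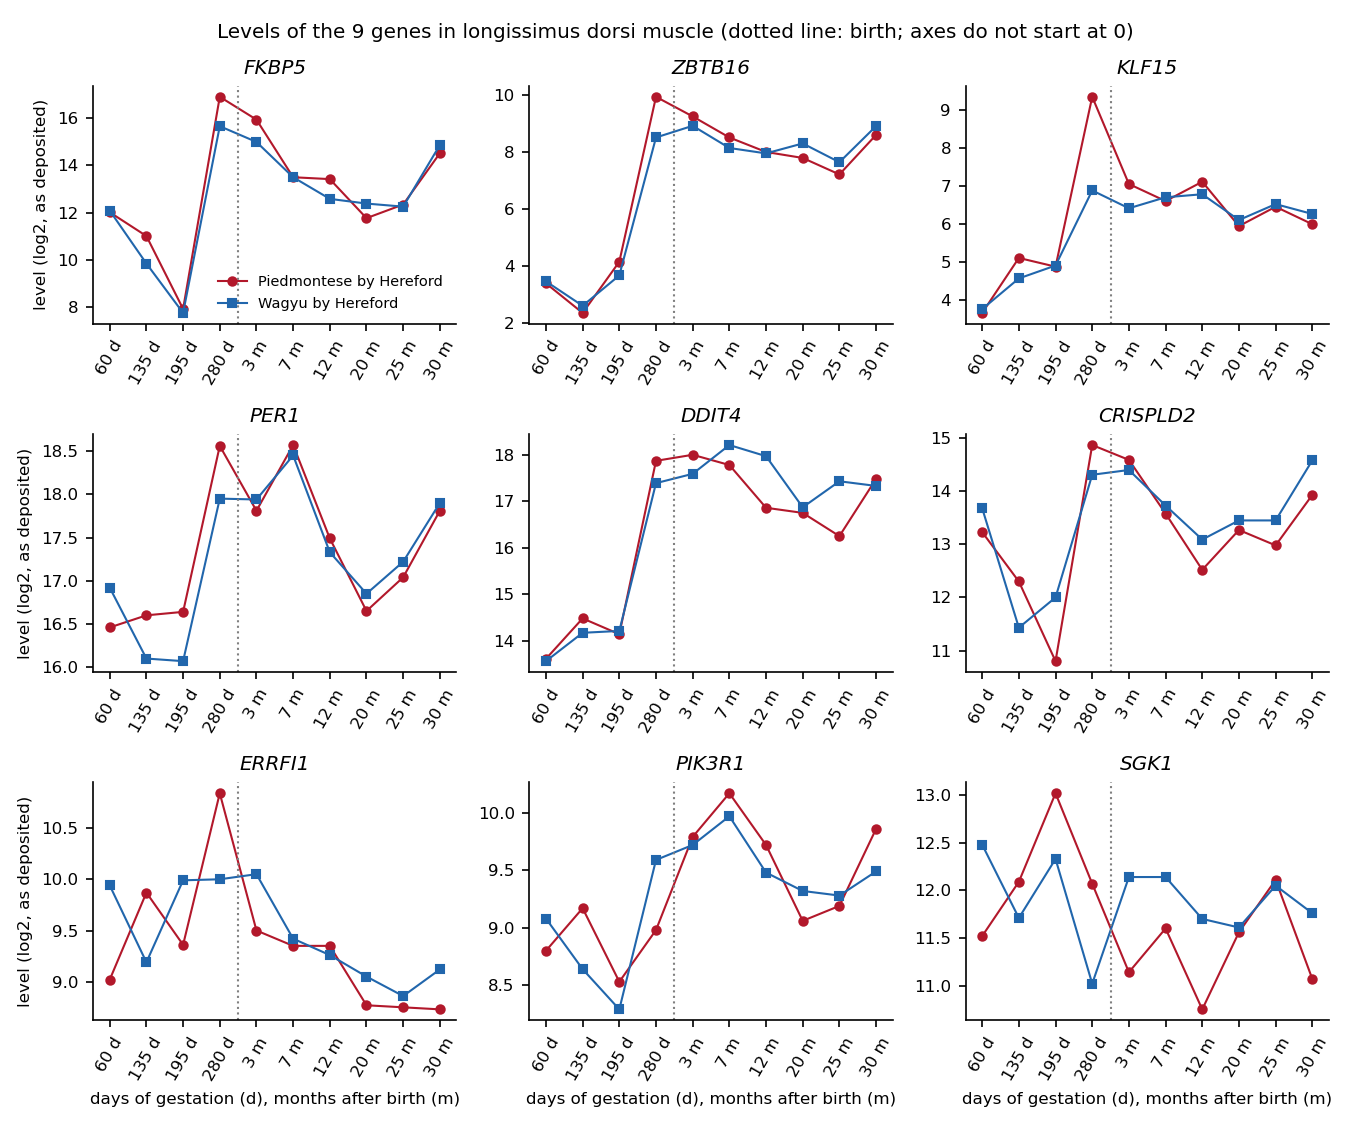
Level of each of the 9 genes (vertical axes, log2 units as deposited, not starting at 0) at 4 fetal and 6 postnatal ages (horizontal axes, days of gestation and months after birth), with 1 point per cross and age, red circles for the Piedmontese cross and blue squares for the Wagyu cross; the dotted line marks birth. FKBP5, ZBTB16, DDIT4 and CRISPLD2 stand higher at 280 days than at 195 days in both crosses, KLF15 has its highest point, 9.36, in the Piedmontese cross at 280 days, and SGK1 shows no such step.

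FKBP5 encodes an HSP90-bound immunophilin that lowers the receptor's affinity for hormone, a negative feedback on the pathway that induces it. In the Piedmontese cross its level was 12.01, 11.00, 7.90 and 16.92 at 60, 135, 195 and 280 days, and 15.95, 13.50, 13.42, 11.76, 12.34 and 14.52 at 3, 7, 12, 20, 25 and 30 months. In the Wagyu cross it was 12.08, 9.83, 7.73 and 15.67 before birth and 15.00, 13.50, 12.58, 12.38, 12.25 and 14.87 after it. The level thus sank through gestation to its lowest values at 195 days and stood highest at 280 days in both crosses. The fall was 1.63 ± 0.39 from 60 to 135 days (adjusted p = 0.00626) and 2.60 ± 0.39 from 135 to 195 days (adjusted p = 0.00026). The rise that followed was 8.48 ± 0.39 (adjusted p = 5.42e-11). Ordered by the mean of the crosses, the ages ran 280 days, 3, 30, 7, 12, 25 and 20 months, then 60, 135 and 195 days. Of the neighbours in that order, 280 days and 3 months, 25 and 20 months, and 20 months and 60 days overlapped.

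ZBTB16, also called PLZF, encodes a zinc finger protein that represses transcription and is a sharply hormone-responsive gene in human cells. Its level in the Piedmontese cross was 3.39, 2.35, 4.15 and 9.95 at the 4 fetal ages and 9.26, 8.52, 8.01, 7.80, 7.22 and 8.61 at the 6 postnatal ages. In the Wagyu cross the levels were 3.46, 2.60, 3.67 and 8.52, and then 8.93, 8.15, 7.96, 8.31, 7.65 and 8.92. Every column from 280 days onwards was above every column up to 195 days. The rise from 195 to 280 days was 5.32 ± 0.35 (adjusted p = 2.13e-09), after a smaller rise of 1.44 ± 0.35 from 135 to 195 days (adjusted p = 0.0105) that did not pass after quantile normalisation (1.06, adjusted p = 0.0692) or without either Piedmontese column of that step. By mean level the ages ran 280 days, 3, 30, 7, 20, 12 and 25 months, then 195, 60 and 135 days, and 280 days with 3 months, 7 with 20 months and 20 with 12 months overlapped.

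KLF15 encodes a Krüppel-like factor which in mouse muscle is induced through the receptor and raises enzymes of branched-chain amino acid breakdown. Its Piedmontese levels were 3.66, 5.11, 4.88 and 9.36 before birth and 7.06, 6.61, 7.12, 5.95, 6.46 and 6.0 after it. Its Wagyu levels were 3.76, 4.57, 4.91 and 6.89, and then 6.42, 6.71, 6.79, 6.11, 6.53 and 6.27. The Piedmontese value at 280 days stood apart from all the others, the next highest being 7.12. The difference between 280 and 195 days was 3.23 ± 0.46 (adjusted p = 1.48e-05). It was 4.48 in the Piedmontese cross and 1.98 in the Wagyu cross. Without the Piedmontese 280-day column it was 2.04, and without the Wagyu one 4.42, both past the threshold.

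PER1 encodes a repressor of the circadian clock that is also switched on directly by the receptor. Its Piedmontese levels were 16.46, 16.60, 16.64 and 18.56 before birth and 17.81, 18.57, 17.49, 16.65, 17.04 and 17.81 after it. The Wagyu levels were 16.92, 16.10, 16.07 and 17.95, and then 17.94, 18.45, 17.33, 16.85, 17.22 and 17.90. High values occurred at 280 days, 3, 7 and 30 months, and the fetal columns up to 195 days and those of 20 months lay lowest. The rise from 195 to 280 days was 1.90 ± 0.26 (adjusted p = 9.66e-06). PER1 follows the time of day in many tissues, and the part of sampling hour in these levels was not tested.

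DDIT4, also called REDD1, encodes an inhibitor of mTORC1, the kinase complex that drives protein synthesis. Its Piedmontese levels were 13.61, 14.48, 14.14 and 17.87 before birth and 18.00, 17.78, 16.86, 16.75, 16.25 and 17.48 after it. Its Wagyu levels were 13.56, 14.17, 14.21 and 17.39, followed by 17.59, 18.21, 17.97, 16.87, 17.43 and 17.33. As for ZBTB16, the columns up to 195 days and those from 280 days onwards did not overlap. The rise between 195 and 280 days was 3.46 ± 0.35 (adjusted p = 3.62e-07). Among the 7 ages from 280 days to 30 months no neighbours in the order of mean levels were separated.

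CRISPLD2 encodes a secreted protein known in human airway smooth muscle as a hormone-induced gene that restrains cytokine responses. The Piedmontese levels were 13.23, 12.30, 10.80 and 14.87 before birth and 14.59, 13.58, 12.52, 13.27, 12.98 and 13.93 after it. The Wagyu levels were 13.68, 11.43, 12.00 and 14.31, then 14.40, 13.73, 13.09, 13.45, 13.45 and 14.58. CRISPLD2 was higher at 60 days than at 135 and 195 days in both crosses, and its highest level was at 280 days in the Piedmontese cross and at 30 months in the Wagyu cross. It fell by 1.59 ± 0.36 from 60 to 135 days (adjusted p = 0.00469) and rose by 3.19 ± 0.36 from 195 to 280 days (adjusted p = 1.17e-06). The early falls of FKBP5 and CRISPLD2 were the only 2 of the 9 genes to pass from 60 to 135 days, where 12% of all rows fell, and neither passed without the Wagyu 135-day column (adjusted p = 0.0992 and 0.0998). FKBP5 was the only gene of the 9 to fall from 135 to 195 days, where 9.48% of all rows fell, and ZBTB16 the only one to rise, where 5.47% did.

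ERRFI1, PIK3R1 and SGK1 act on growth factor and ion transport signalling. Their ranges of age means were the narrowest of the 9, at 1.62, 1.66 and 1.45 log2 units. The range was 2.16 for PER1, the next narrowest, 3.19 for CRISPLD2 and 8.48 for FKBP5, the widest. ERRFI1, also called MIG6, binds the EGF receptor and inhibits its kinase. At 195 days its level was 9.36 in the Piedmontese and 9.99 in the Wagyu cross, and at 280 days 10.84 and 10.00. Only the Piedmontese columns differed, and the difference of 0.74 ± 0.34 did not pass (adjusted p = 0.0819). It passed under quantile normalisation (1.53 ± 0.40, adjusted p = 0.0051), when columns were centred (1.49) and without the Wagyu 280-day column (1.28). At the later postnatal ages ERRFI1 was low, 8.73 to 9.12 from 20 months onwards.

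PIK3R1 encodes the p85-alpha regulatory subunit of PI3K, the lipid kinase through which insulin acts. Its level was 8.53 and 8.29 in the Piedmontese and Wagyu crosses at 195 days, 8.98 and 9.59 at 280 days, 9.79 and 9.72 at 3 months and 10.17 and 9.97 at 7 months, the highest age. The rise from 195 to 280 days was 0.88 ± 0.25 (adjusted p = 0.00796). It did not pass without the Wagyu 280-day column (0.52, adjusted p = 0.134), without the Wagyu 195-day column (0.76, adjusted p = 0.0709) or with the 8 fetal columns alone (0.88, adjusted p = 0.0613).

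SGK1 encodes the serum- and glucocorticoid-regulated kinase, which frees sodium channels from the ubiquitin ligase NEDD4L and is a standard hormone target in kidney and many cell lines. In this muscle series it did not rise from 195 to 280 days. Its level was 13.02 and 12.33 in the Piedmontese and Wagyu crosses at 195 days and 12.07 and 11.02 at 280 days. The fall of 1.13 ± 0.42 (adjusted p = 0.0354) did not pass under quantile normalisation (−0.63, adjusted p = 0.303), when columns were centred (−0.39, adjusted p = 0.503), with a trended prior or without the Piedmontese 195-day or the Wagyu 280-day column. Over all 20 columns the levels lay between 10.75 and 13.02, and SGK1 was the only gene of the 9 that did not pass the F test over the ages (adjusted p = 0.135). The other 8 passed it, as did 87.4% of all rows.

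**Figure D2:**
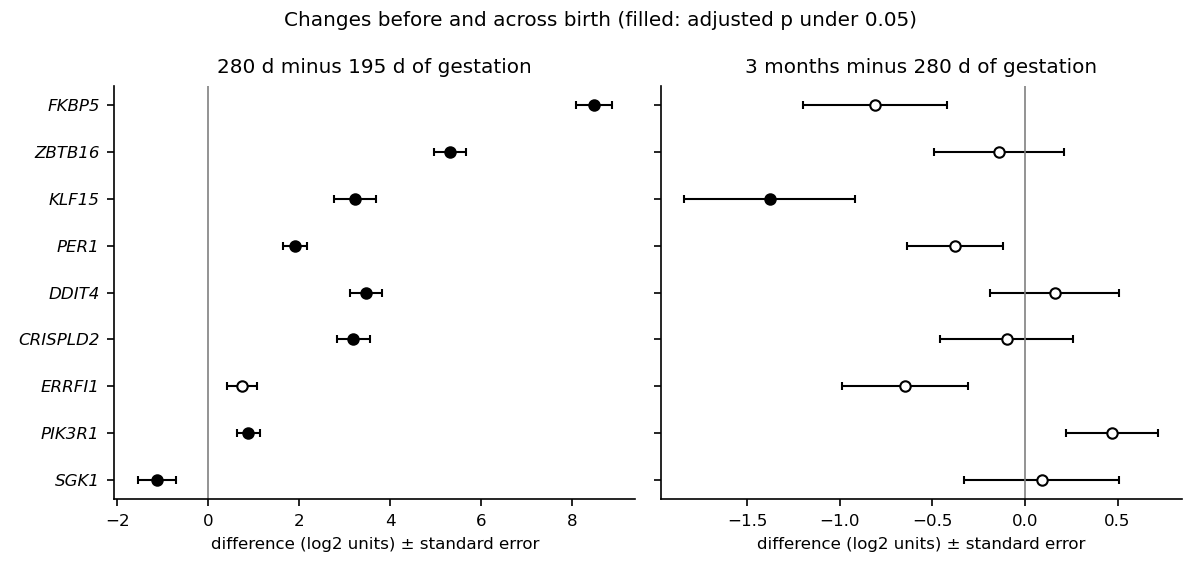
Differences of the 9 genes in log2 units (horizontal axes, with bars of ± 1 standard error of the limma fit) between 195 and 280 days of gestation on the left and between 280 days and 3 months after birth on the right; filled points passed an adjusted p of 0.05. On the left 7 points lie above 0 and pass, from PIK3R1 at 0.88 to FKBP5 at 8.48, and on the right only KLF15, at −1.38, passes.

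Set against the earliest fetal age, 7 of the 9 genes were higher at 280 days than at 60 days, where 18.6% of all rows were higher. The differences were 5.81 for ZBTB16, 4.42 for KLF15, 4.25 for FKBP5, 4.05 for DDIT4, 1.57 for PER1, 1.14 for CRISPLD2 and 0.94 for ERRFI1. PIK3R1 (0.34 ± 0.25, adjusted p = 0.254) and SGK1 (−0.46 ± 0.42, adjusted p = 0.365) did not pass. PIK3R1 passed after quantile normalisation and with centred columns (1.61 and 1.57). The difference of ERRFI1 lay in 1 cross, at 1.82 in the Piedmontese and 0.07 in the Wagyu columns, and it was 2.13 after quantile normalisation and 2.17 with centred columns. FKBP5 and CRISPLD2 stood higher at 60 than at 195 days, so their differences over the whole of gestation were smaller than those over its last interval.

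Across birth, from 280 days to 3 months, the 9 genes mostly did not pass in either direction. KLF15 was the only one to pass, at −1.38 ± 0.46 (adjusted p = 0.0327), where 14.8% of all rows fell and 13.8% rose. The median difference was −0.14 for the 9 genes and −0.14 for all rows. FKBP5 stood at −0.81 ± 0.39 (adjusted p = 0.122), ERRFI1 at −0.65 ± 0.34 (0.16), PER1 at −0.38, ZBTB16 at −0.14, CRISPLD2 at −0.10, SGK1 at 0.09, DDIT4 at 0.16 and PIK3R1 at 0.47 ± 0.25 (0.172). The fall of KLF15 rested on 1 column: without the Piedmontese 280-day column the difference was −0.19 ± 0.29 (adjusted p = 0.657). It also missed the threshold without either 3-month column (−1.56 and −1.21) and with a trended prior (adjusted p = 0.0694). Without the Wagyu 280-day column the differences of FKBP5, ERRFI1 and ZBTB16 were −1.32, −1.18 and −0.88, and that of PIK3R1 was 0.83. That run left 1 column at 280 days, so only the differences are given.

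A test of 280 days against the mean of the neighbouring ages, 195 days and 3 months, was made as well. Of the 9 genes 6 passed as higher, where 13.5% of all rows did: FKBP5 (4.65 ± 0.33), ZBTB16 (2.73), KLF15 (2.31), DDIT4 (1.65), CRISPLD2 (1.65) and PER1 (1.14). Of these 6, FKBP5, ZBTB16, DDIT4, CRISPLD2 and PER1 did not pass between 280 days and 3 months, and the fall of KLF15 there rested on 1 column, so passing this contrast does not show a peak at 280 days. Through its 2 parts the contrast shares columns with the comparisons above. The means of the 6 postnatal and the 4 fetal ages were also compared, and 7 of the 9 genes were higher after birth (22.2% of all rows) and ERRFI1 was lower (51.3% of all rows). ZBTB16 differed by 3.52 ± 0.16, DDIT4 by 2.45 ± 0.16, FKBP5 by 1.87 ± 0.18 and KLF15 by 1.11 ± 0.21, and CRISPLD2, PIK3R1 and PER1 by 0.80, 0.70 and 0.68. ERRFI1 was at −0.59 ± 0.15 as deposited but at 0.01 after quantile normalisation and 0.03 with centred columns, so its direction depended on the scaling. CRISPLD2 did not pass without the 195-day columns (0.33, adjusted p = 0.0812).

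After birth the levels drifted with few steps past the threshold, and 0 of the 9 genes passed in the limma fit from 3 to 30 months, where 18.4% of all rows rose and 3.49% fell. Without adjustment ERRFI1 alone fell under 0.05 in that fit (−0.85 ± 0.34, adjusted p = 0.0801). ERRFI1 and KLF15 fell when the 12 postnatal columns were fitted alone (−0.85 and −0.61, adjusted p = 0.00459 and 0.0449), and ERRFI1 also fell without the 280-day columns (adjusted p = 0.0444). FKBP5 fell by 1.98 ± 0.39 from 3 to 7 months (adjusted p = 0.0193, where 0.782% of all rows fell). PER1 fell by 1.1 ± 0.26 from 7 to 12 months (adjusted p = 0.0415, where 0.587% of all rows fell). Both falls missed the threshold when any 1 of the 4 columns of the step was left out, at −1.64 to −2.32 for FKBP5 and −1.06 to −1.14 for PER1. From 12 to 20 and from 20 to 25 months 0 of the 9 genes passed (2.29% and 8.97% of all rows did, in either direction), and at an unadjusted p under 0.05 FKBP5 (−0.93) and PER1 (−0.66) were lower at 20 than at 12 months.

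Between 25 and 30 months FKBP5 rose by 2.40 ± 0.39 (adjusted p = 0.00257) and ZBTB16 by 1.34 ± 0.35 (adjusted p = 0.0497), where 2.19% of all rows rose. Each rise was seen in both crosses: FKBP5 went from 12.34 to 14.52 and from 12.25 to 14.87, and ZBTB16 from 7.22 to 8.61 and from 7.65 to 8.92. CRISPLD2 (1.04 ± 0.36) and PER1 (0.72 ± 0.26) did not pass over the 20 columns and passed when the 12 postnatal columns were fitted alone (adjusted p = 0.00795 and 0.0232). ZBTB16 did not pass after quantile normalisation (1.17, adjusted p = 0.085), with centred columns (1.20, adjusted p = 0.125) or without any 1 of the 4 columns (1.04 to 1.64, adjusted p = 0.102 to 0.574). FKBP5 did not pass without the Piedmontese 25-month or the Wagyu 30-month column (2.26 and 2.01, adjusted p = 0.0674 and 0.0837). KLF15 (−0.36 ± 0.46) and SGK1 (−0.66 ± 0.42) did not pass. In the same interval 133 of all 21475 rows fell and 470 rose. Of 7 red cell precursor markers 4 fell, their mean level going from 8.38 and 7.86 to 5.86 and 5.37, and 1 of 6 macrophage markers fell. Rises were seen in 2 of 3 Schwann cell markers, 1 of 8 fat cell markers and 1 of 8 endothelial markers. The part of these tissue changes in the result was not tested.

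**Figure D3:**
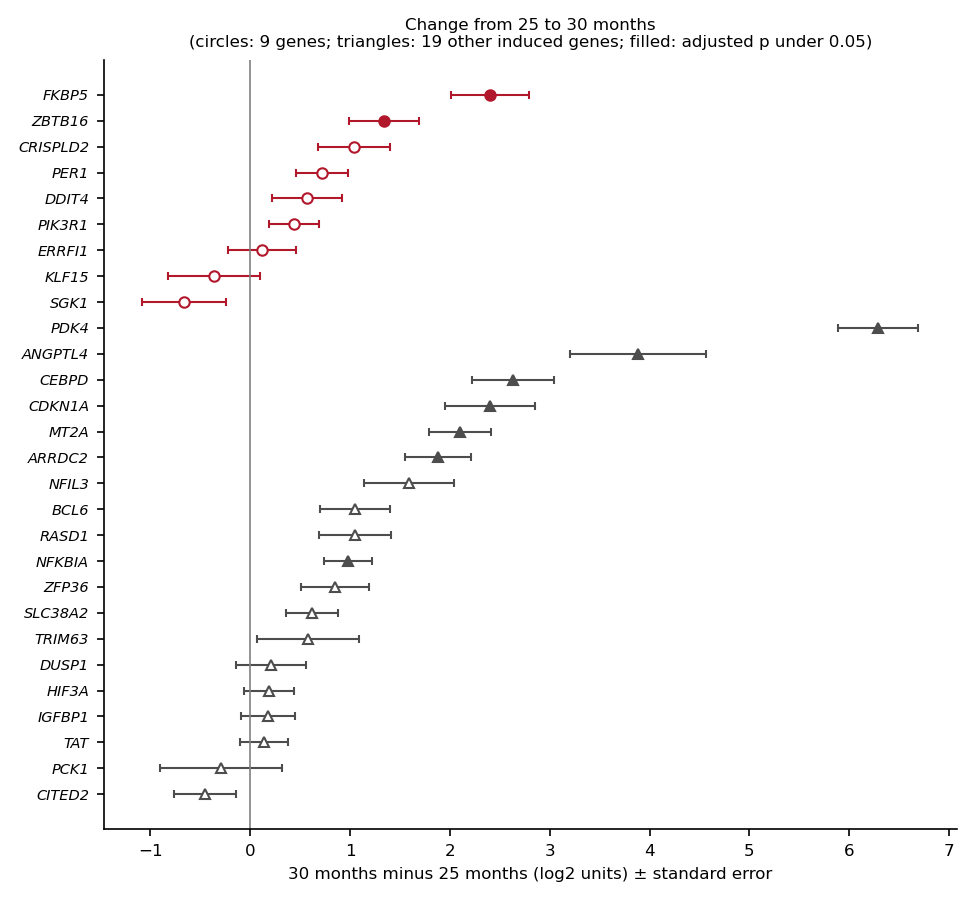
Difference between 25 and 30 months after birth (horizontal axis, log2 units, bars of ± 1 standard error of the limma fit) for the 9 genes (circles) and for 19 other genes listed as glucocorticoid-induced (triangles), filled where the adjusted p was under 0.05. FKBP5 at 2.40 and ZBTB16 at 1.34 are the filled circles, and PDK4 at 6.29 is the triangle farthest to the right.

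The crosses differed little in these genes over all ages, with 0 of 9 past the threshold in the limma fit (0.279% of all rows) and 0 at an unadjusted p under 0.05. FKBP5 was the nearest, at 0.34 ± 0.17 higher in the Piedmontese cross (adjusted p = 0.657, unadjusted p = 0.0641). Whether the cross difference changed between fetal and postnatal ages was tested on the 10 differences, and 0 of 9 genes passed (0.0186% of all rows did). Without adjustment SGK1 alone fell under 0.05 there (−0.82 ± 0.33, limma adjusted p = 0.816).

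At 280 days 8 of the 9 genes were higher in the Piedmontese cross, by 2.47 for KLF15, 1.44 for ZBTB16, 1.25 for FKBP5, 1.06 for SGK1 and 0.48 to 0.83 for ERRFI1, PER1, CRISPLD2 and DDIT4, and PIK3R1 was lower by 0.61. The test of the cross difference at 280 days against the other 9 ages passed for KLF15 (2.38 ± 0.35, adjusted p = 0.0145), where 2.22% of all rows passed and 0.256% did so upwards. ZBTB16 was just short of the threshold (1.48 ± 0.37, adjusted p = 0.0522) and passed after quantile normalisation (1.80, adjusted p = 0.0091), with centred columns (1.93) and with the lowest rows left out. FKBP5 (1.01), ERRFI1 (1.07) and SGK1 (1.39) did not pass. The median of the 9 genes was 1.01 and that of all rows −0.34. This test sets 1 pair of columns against 9 other pairs, and no column at 280 days can be left out of it. Its errors and p-values come from those 9 pairs alone and do not measure the spread at 280 days. Over rows, the SD of the cross gap was 0.28 to 0.37 at the postnatal ages and 0.54 at 280 days. The dyes were unbalanced there, with 2 Piedmontese samples in Cy3 and 1 in Cy5 and the reverse for Wagyu. The same imbalance held at 60 days, where KLF15 differed by −0.10 and the 9 genes by −0.96 to 0.05. It was reversed at 135 and 195 days, where KLF15 differed by 0.54 and −0.03. The 9 genes differed there by −0.25 to 1.17 and by −1.19 to 0.69. The part of the dyes in the result was not tested. In the test at 280 days 3 of 7 neutrophil markers were higher in the Piedmontese cross as well, with S100A8 at 3.08 ± 0.56. The mean level of the 7 markers at 280 days was 8.05 in the Piedmontese and 6.45 in the Wagyu cross. At 195 days the order was the opposite, at 7.44 and 8.85. The part of blood cells in the result was not tested.

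**Figure D4:**
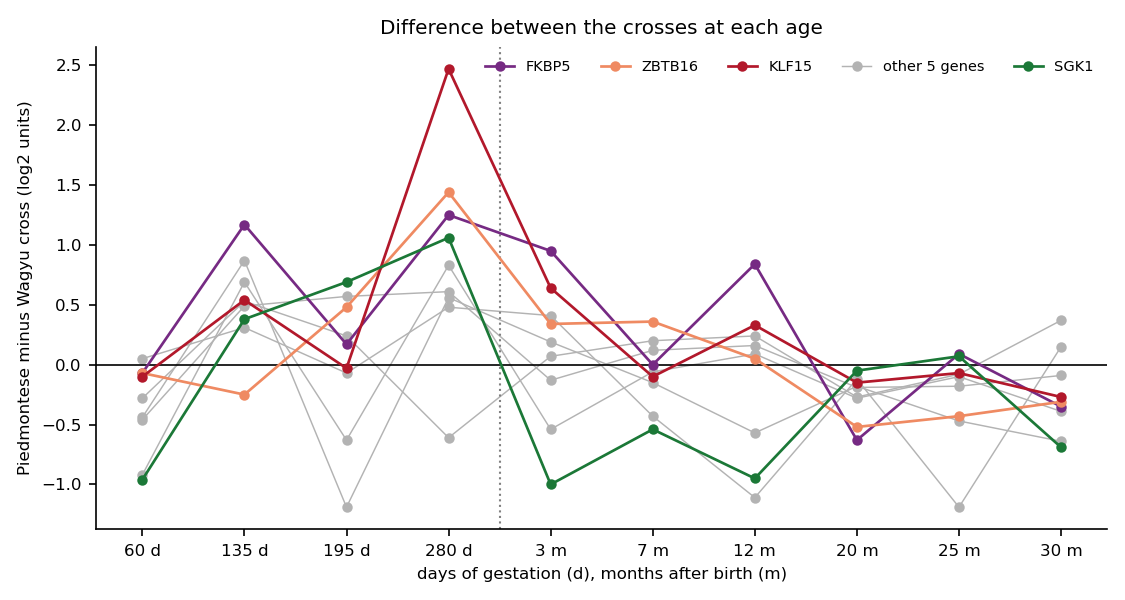
Difference in level between the crosses, Piedmontese minus Wagyu (vertical axis, log2 units), at each of the 10 ages (horizontal axis) for the 9 genes, with FKBP5, ZBTB16, KLF15 and SGK1 in colour and the other 5 in grey; the dotted line marks birth. KLF15 stands at 2.47 at 280 days, and the differences at 20 to 30 months lie between −1.19 and 0.37.

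The wider set of hormone targets gives a context for the 9 genes. A list of 38 other genes known as glucocorticoid-induced had 19 measured members. From 195 to 280 days 14 of the 19 rose and 0 fell, with a median of 2.50, where 14.2% of all rows rose and 33.6% fell. PDK4, which slows the burning of glucose in mitochondria, stood 10.99 ± 0.40 higher, and the metallothionein MT2A rose by 7.18 ± 0.31. CEBPD, a transcription factor, and TRIM63, a ubiquitin ligase of muscle wasting, were at 6.79 and 6.43, and the phosphatase DUSP1 was at 2.50. Those short of the threshold were RASD1 (0.86), HIF3A (−0.19), TAT (−0.27), CITED2 (−0.33) and PCK1 (−0.48), of which TAT and PCK1 are known as hormone targets in liver. Across birth this list differed from the 9 genes in its counts: 9 of 19 fell and 0 rose, where 14.8% of all rows fell and 13.8% rose. CDKN1A, a cell cycle inhibitor, fell by 4.30 ± 0.45, CEBPD fell by 3.84 ± 0.41 and MT2A fell by 2.86 ± 0.31. The 2 counts were not tested against each other. The counts of falls were 7 and 8 without the Piedmontese and the Wagyu 280-day column. From 25 to 30 months 7 of the 19 rose, where 2.19% of all rows did, among them PDK4 (6.29), ANGPTL4 (3.88), CEBPD (2.63), CDKN1A (2.40) and MT2A (2.10), named after their values were seen.

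**Figure D5:**
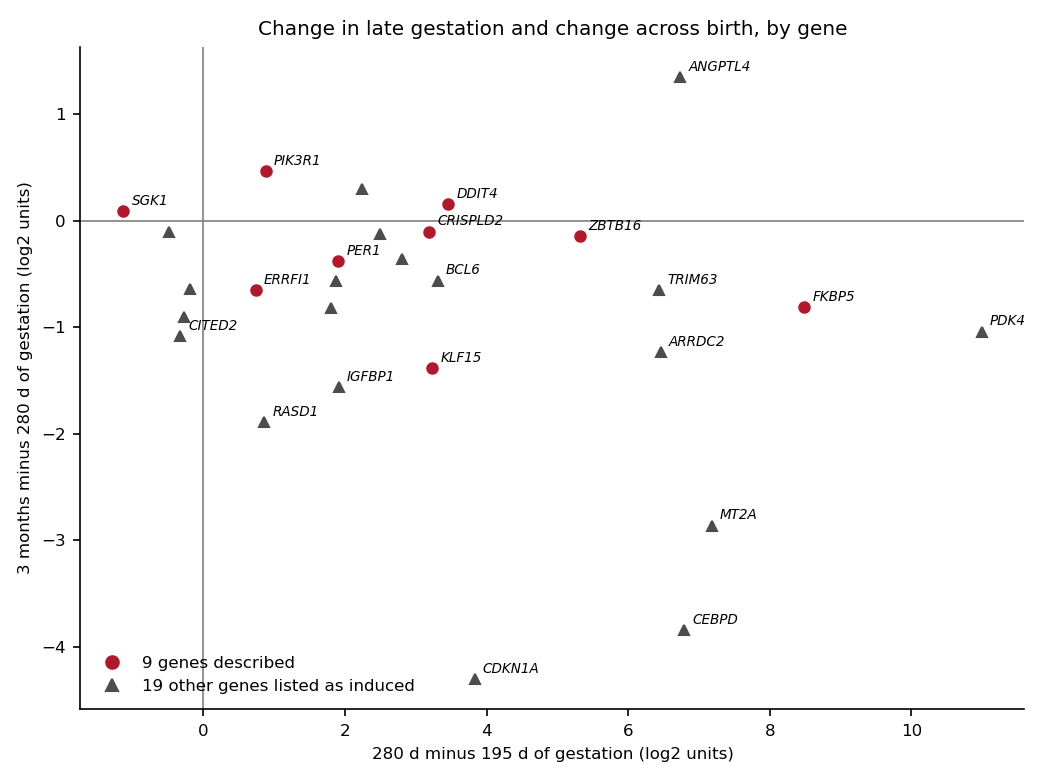
Each gene's difference between 195 and 280 days of gestation (horizontal axis, log2 units) against its difference between 280 days and 3 months (vertical axis, log2 units), for the 9 genes (red circles) and the 19 other listed genes (grey triangles); both differences use the same 280-day columns. The 9 genes lie between −1.38 and 0.47 on the vertical axis, while CDKN1A, CEBPD and MT2A lie at −4.30, −3.84 and −2.86.

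The receptor and its partners moved in both directions in late gestation. NR3C1, the glucocorticoid receptor itself, was at 13.19 and 13.05 in the Piedmontese and Wagyu crosses at 195 days and at 11.88 and 12.64 at 280 days. It fell by 0.86 ± 0.28 (adjusted p = 0.0184), and its difference across birth did not pass (−0.42 ± 0.28, adjusted p = 0.274). FKBP4, the HSP90 partner that competes with FKBP5 and favours the receptor's entry into the nucleus, went from 14.99 and 15.16 to 17.33 and 17.84. It rose by 2.51 ± 0.24 (adjusted p = 2.09e-07) and fell by 0.74 ± 0.24 after birth (adjusted p = 0.0331). HSD11B2, which inactivates cortisol, did not pass in either interval (−0.08 and −0.27). Of 15 measured genes of this list 4 rose before birth, with the chaperone link STIP1 (0.97), HSPA8 (0.89) and PPID (0.73) beside FKBP4, and 3 fell, the coactivator NCOA1 (−2.22) and the co-chaperone DNAJB1 (−1.80) beside NR3C1. The counts depended on scaling, at 7 higher and 3 lower under quantile normalisation, at 11 and 2 when columns were centred, and at 1 and 3 without the Wagyu 280-day column. Over all rows 14.2% rose and 33.6% fell as deposited. After quantile normalisation 6761 of all 21475 rows rose and 5642 fell, and with centred columns 10935 rose and 4406 fell. HSD11B1, which regenerates cortisol, and TSC22D3, a classic target, were not analysed here.

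Genes on which the 9 are known to act were described through lists, also chosen with earlier results of these data known. Their counts on the deposited values stand against 14.2% of all rows higher and 33.6% lower from 195 to 280 days, and 13.8% and 14.8% across birth. The other scalings had other backgrounds from 195 to 280 days. Of all 21475 rows 6761 rose and 5642 fell after quantile normalisation, and 10935 rose and 4406 fell with centred columns. For KLF15, 8 of 14 genes of branched-chain and related amino acid breakdown rose from 195 to 280 days and 3 fell, and 9 to 10 rose and 3 fell under the other scalings. PRODH, which oxidises proline, rose by 2.59 ± 0.26, and DLD, a shared dehydrogenase subunit, rose by 2.38 ± 0.20. BCKDHB and DBT, subunits of the branched-chain keto acid dehydrogenase, were at 1.44 and 1.12. PPM1K, the phosphatase that activates that complex, fell by 6.80 ± 0.29 and the aminotransferase BCAT1 by 4.39 ± 0.56. The remaining gene of the list that fell was BCAT2, at −1.38 ± 0.31 (adjusted p = 0.00137). The genes of this list thus did not all move in the direction of KLF15. After birth PPM1K rose by 2.78 and PRODH fell by 1.90.

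For PER1, 4 of 10 other clock genes rose before birth and 2 fell, against 8 and 1 when columns were centred and 6 and 2 under quantile normalisation. RORA and ARNTL, activators of the clock, rose by 1.66 ± 0.36 and 1.46 ± 0.30, while the repressor BHLHE40 fell by 2.51 ± 0.33 and PER3, the relative of PER1, by 0.73 ± 0.20. Across birth BHLHE40 rose by 2.13 and NR1D2 by 1.01, and ARNTL fell by 1.07.

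For DDIT4, 5 of 10 genes around mTORC1 rose and 1 fell, with 8 and 1 when columns were centred. The mTORC1 inhibitor AKT1S1 and its activator RHEB rose alike, by 1.54 ± 0.28 and 1.46 ± 0.25, and the stress-induced inhibitor SESN2 fell by 1.72 ± 0.36. DDIT4L, the relative of DDIT4, was at 1.16. None of the 10 passed across birth in the limma fit on the deposited values. After quantile normalisation 3 fell there, as did 4418 of all 21475 rows.

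For PIK3R1, 5 of 15 genes of insulin and PI3K signalling rose and 3 fell, a count that was 9 and 2 after quantile normalisation, 10 and 2 with centred columns and 3 and 2 without the Piedmontese 280-day column. The glucose transporter SLC2A4 and the kinase AKT2 rose by 1.12 and 0.82, and PIK3R2, the other p85 subunit, fell by 4.29 ± 0.20, from 13.11 and 13.33 to 8.74 and 9.12. After birth IGF1R fell by 1.64 and INSR by 0.90, and PIK3R2 rose by 0.73. For ERRFI1, 2 of 10 genes around the EGF receptor rose and 3 fell, shares near those of all rows. The count was 3 and 4 after quantile normalisation, 5 and 2 with centred columns and 0 and 3 without the Piedmontese 280-day column. EGFR, its target, rose by 0.89 ± 0.25 and fell by 0.94 ± 0.25 across birth, and the related receptor ERBB3 fell by 5.02 ± 0.31 before it. Among 7 genes acting downstream of SGK1, 4 rose and 2 fell, or 2 and 2 without the Wagyu 280-day column, and NEDD4L rose by 3.28 ± 0.40 to 14.56 and 12.79 at 280 days and fell by 2.75 ± 0.40 after birth.

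Other inducers are known for several of these genes, and their lists are counted here against the same 14.2% of all rows higher and 33.6% lower. DDIT4 is also known as a target of low oxygen, and 8 of 14 hypoxia genes rose while 3 fell, with PFKFB3 (8.66 ± 0.30) and CA9 (4.31 ± 0.25) leading. Across birth 6 of the 14 fell and 1 rose, where 14.8% of all rows fell and 13.8% rose. CA9 fell by 5.05 and the glucose transporter SLC2A1 by 2.55, while ANKRD37 rose by 1.58. PER1 and KLF15 can respond to cyclic AMP, and 4 of 9 genes of that list rose and 2 fell, with NR4A3 at 4.96 and CRTC1 at −2.32. Of 16 immediate early genes 10 rose and 2 fell, with ATF3 at 5.41 ± 0.65 and IER2 at −1.99 ± 0.29, and across birth MYC and FOSL2 fell by 3.10 and 3.07. PNMT, which makes adrenaline and is itself a known glucocorticoid target in the adrenal medulla, rose by 5.52 ± 0.39 and fell by 5.59 ± 0.39 across birth. The other 3 of 4 adrenal medulla markers did not pass as deposited. With centred columns 3 of the 4 rose from 195 to 280 days, as did 10935 of all 21475 rows. The part of these inputs in the 9 genes was not tested.

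Cell type markers are counted against the same shares of all rows, 14.2% higher and 33.6% lower from 195 to 280 days. Muscle fibre markers were higher in 4 of 8, with mean levels of 18.54 and 18.45 at 195 days and 19.49 and 20.08 at 280 days. Endothelial markers fell in 7 of 8 (mean 11.53 and 11.32, then 8.97 and 9.38) and fibroblast markers in 6 of 6 (14.98 and 15.55, then 11.68 and 12.87). Macrophage markers fell in 4 of 6, and red cell precursor markers fell in 5 of 7, from 10.98 and 10.81 to 6.52 and 6.40. Of 7 neutrophil markers 1 rose and 4 fell, of 8 fat cell markers 1 rose and 1 fell, of 6 lymphocyte markers 1 fell and 0 rose, and of 3 Schwann cell markers 1 rose and 2 fell. For lymphocytes 4 rose and 1 fell when columns were centred, and 3 and 1 under quantile normalisation, so that their direction depended on the scaling. Of all 21475 rows 10935 rose and 4406 fell when columns were centred, and 6761 and 5642 under quantile normalisation. Across birth, where 13.8% of all rows rose and 14.8% fell, fibroblast and macrophage markers rose in 3 of 6 and 4 of 6 and neutrophil markers fell in 3 of 7, with mean levels of 8.05 and 6.45 at 280 days and 5.41 and 5.33 at 3 months. Endothelial markers rose in 2 of 8 and red cell precursor markers in 2 of 7. Of 8 fat cell markers 2 rose and 1 fell, and of 6 lymphocyte markers 2 rose and 1 fell. No muscle fibre or Schwann cell marker passed. The part of these shifts in the levels of the 9 genes was not tested.

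Among themselves the 9 genes had unlike profiles in size. Each profile was centred on its own mean and compared by the root mean square difference over the 20 columns, a description with no test, since columns share animals' crosses, slides and ages. PER1 and PIK3R1 were the closest pair at 0.48 and ZBTB16 and SGK1 the farthest at 2.72. Among all genes with a symbol, MAFF was the nearest to FKBP5 at 0.90 (against a median gene at 2.50) and XDH the next at 1.18. DAPK2 (0.62) and ARRDC2 (0.71) were nearest to ZBTB16, FXR2 (0.52) and ABHD4 (0.55) to KLF15, and FAM107A (0.32) and KLHDC4 (0.36) to PER1. ZFAND5 (0.48) and PDHA1 (0.49) were nearest to DDIT4, and CNKSR2 (0.57) and LNX1 (0.58) to CRISPLD2. KRT35 (0.32) and FILIP1 (0.34) were nearest to ERRFI1, PRCC and EVI5L (both 0.22) to PIK3R1, and BOLA-DOA (0.42) and RHBDL1 (0.43) to SGK1. For SGK1 the median gene was at 0.77, so its nearest genes stood out less than those of FKBP5. By Pearson correlation over the 20 columns the nearest gene was the same for FKBP5 (MAFF, r = 0.94), KLF15 (FXR2, 0.92) and PER1 (FAM107A, 0.93), while CRISPLD2 was then nearest to FKBP5 (0.91). The mean profile of the 9 genes was closest to GSPT1 (0.36), ADSL (0.37), ARSG (0.38), SPDEF (0.40), RILPL1 and GRM6 (both 0.41), and EIF3B and LOC530538 (both 0.42), and by correlation to PFKFB3 (0.98).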

How the data were processed

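RNA of longissimus dorsi from 72 animal samples was hybridised to 36 two-colour Agilent arrays, a Piedmontese and a Wagyu cross sample of the same age on each. Images were read with Agilent Feature Extraction 8.5.1.1, per the submitters' processing notes. The deposited table holds 21475 array rows in 20 columns of log2 values, 1 per cross and age; the log base is read from the range of the values, and the way the authors combined animals and normalised arrays is not given in the sources used here. Precision is limited by the number of arrays. Of the rows 12276 have 1 symbol and 9199 none in the platform annotation, and 12153 of the symbols were found in RefSeq's gene table. A gene with several rows was represented by the row with the highest mean.

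Values were fitted as deposited with limma 3.58.1 in R 4.3.3 (age and cross, 9 residual degrees of freedom, empirical Bayes, Benjamini-Hochberg over all rows, threshold 0.05), and the 10 cross differences in a second fit with 8. The fit was tested on simulated data with independent noise in every column and the same spread at all ages. That test cannot check array error shared by the columns of an age, nor a spread that differs between ages. Plots and tables used Python 3.11.15. The p-values measure the spread between crosses after a common cross difference, and do not hold array error that both columns of an age share. Those of the cross difference test at 280 days rest on the spread of the other 9 ages alone. Alternatives were quantile normalisation, centring each column on its median, leaving out the 25% lowest rows, a trended robust prior, subsets of ages, and leaving out ages or columns; those leaving out single columns other than the 280-day ones, all those for the steps between other neighbouring ages, for the cross difference at 280 days and for the other gene lists, were added after seeing the data. The 9 genes and all lists were chosen with earlier results of these data known. From each other list the text names at most 2 genes per direction, those that changed most and passed, from 195 to 280 days and across birth, and NR3C1, HSD11B2 and FKBP4; further list genes were named after their values were seen. Sequences were not used here, and a planned search for promoter motifs was not run.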

Additional observations from a re-analysis of the deposited data

Results flagged for a closer look

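The cross difference of KLF15 at 280 days departed from that of the other 9 ages by 2.38, with the Piedmontese cross higher. The error of that fit comes from the other 9 ages alone. Across birth, from 280 days to 3 months, 4 genes went in opposite directions in the crosses. ZBTB16 was at −0.69 in the Piedmontese and 0.41 in the Wagyu cross, and CRISPLD2 at −0.29 and 0.08. ERRFI1 was at −1.33 and 0.04, and SGK1 at −0.93 and 1.12. From 3 to 30 months the same held for CRISPLD2, at −0.65 and 0.18, and for PIK3R1, at 0.07 and −0.23. With 1 column per cross and age these opposite directions were not tested, and the SD over rows of the cross difference, 0.54 at 280 days and 0.34 at 3 months, is larger than several of them.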

How the results depend on the processing

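The rises of FKBP5 (7.97 to 9.22), ZBTB16 (4.58 to 6.07), KLF15 (2.04 to 4.42), PER1 (1.5 to 2.65), DDIT4 (3.10 to 4.20) and CRISPLD2 (2.64 to 3.94) from 195 to 280 days passed in every alternative run. Reversals were counted only where the difference passed as deposited or in the alternative. The only ones were those of ERRFI1 between postnatal and fetal ages, at 0.01 after quantile normalisation and 0.03 with centred columns, where 0 of the 9 genes were then lower. Differences short of the threshold as deposited also changed sign. Across birth these included ZBTB16 (−0.88 to 0.60), SGK1 (−0.60 to 0.79), DDIT4 (−0.19 to 0.51) and CRISPLD2 (−0.53 to 0.32). The cause of these and the following changes was not tested.

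From 195 to 280 days 0 of the 9 genes fell after quantile normalisation, with centred columns, with a trended robust prior or without the Wagyu 280-day column. Across birth 9313 array features passed with centred columns, and 0 of the 9 genes fell with a trended prior. For 280 days against its neighbours 13594 features passed with centred columns. From 3 to 30 months 2827 passed with the 25% lowest features left out, and 8003, with 2 of the 9 genes lower, in the 12 postnatal columns alone. Between the crosses 120 passed after quantile normalisation, 117 with centred columns and 0 with no age block. From 25 to 30 months 1612, 910 and 1850 features and 1, 1 and 4 of the 9 genes passed after quantile normalisation, with centred columns and in the postnatal columns alone. From 3 to 7 months the numbers were 804, 732 and 1248 features, with 2 of the 9 genes lower in the last. For the cross difference at 280 days 2 of the 9 genes passed after quantile normalisation, with centred columns and with low features left out, the last with 1008 features. From 135 to 195 days 0 of the 9 genes rose after quantile normalisation and 4888 features passed with centred columns. From 7 to 12 months 1033 and 923 features passed after quantile normalisation and with centred columns.

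When single ages, or single columns other than the Wagyu and Piedmontese 280-day ones given above, were left out, 8493 to 10560 features passed from 195 to 280 days, with 6 to 7 of the 9 genes higher and 0 to 1 lower. Across birth 2930 to 6639 passed, with 0 to 1 lower. From 60 to 280 days 12804 to 13332 passed with 7 higher, and for 280 days against its neighbours 8070 to 8943 with 6 to 7 higher. From 3 to 30 months 4077 to 5877 passed with 0 to 1 lower, and between postnatal and fetal ages 14728 to 16509 with 6 to 7 higher and 1 to 2 lower. Between the crosses 12 to 120 passed. From 25 to 30 months 84 to 176 passed with 0 to 1 higher, from 3 to 7 months 16 to 45 with 0 lower, and from 7 to 12 months 23 to 95 with 0 lower. From 60 to 135 days 2579 to 3607 passed with 0 to 2 lower, and from 135 to 195 days 1162 to 3629 with 0 to 1 higher and 1 lower.

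A column left out leaves 1 at its age, which is assumed to vary like the other ages. Averaging all rows of a gene left the 9 genes' differences as they were, since each has 1 row. The fit has age and cross as terms, so the crosses are paired within each age; animals could not be paired, since each cross and age has 1 column. Animals' spread, signal over background and dye effects within an array could not be read from the deposited table, and slides cannot be told apart from age across birth or from 20 to 25 months.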
